A study of Hydra oligactis with 61 samples.

Results

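The comparison described here set the Foot of the uninjured freshwater polyp *Hydra oligactis* against its Head, with no cut and no regeneration between them. Its members were chosen by name, as the count columns that begin with FOOT (5 libraries) or HEAD (5 libraries), 10 of the 61 poly(A) RNA-seq libraries in the series. The series as a whole sampled 16 groups, most of them foot or head regenerates at set hours after a mid-body bisection. The Foot group held the peduncle and the basal disk, and the Head group held the hypostome and the ring of tentacles. Both came from intact polyps of the Innsbruck 12 strain that were pooled for each library and briefly exposed to DMSO, the solvent used throughout the series. Neither group is a single cell type, and the cell composition of the pieces of tissue was not measured. Libraries taken at 0 hours post amputation (0 hpa) gave a mid-body reference that had the same solvent exposure. HR_0hpa (7 libraries) was the tissue just below the cut and FR_0hpa (7 libraries) the tissue just above it, so the order along the body was Foot, HR_0hpa, FR_0hpa and Head. The labels put 3 libraries of each end in a first sequencing batch and 2 in a second, while the design text of the series counts 4 and 2. The columns carry the numbers 1, 2, 3, 5 and 6 for Foot and 2, 3, 4, 5 and 6 for Head, and no label ties a number to a batch. At 0 hpa the libraries numbered 5 and above were those of the second batch. Animals were taken from large cultures and allotted to replicates at random, so p-values measure the spread between such pools.

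*Hydra* keeps its 2 ends in a tube of tissue that is renewed throughout life. Stem cells divide along the body column, and their progeny are displaced toward the hypostome, the tentacles or the basal disk, where they stop dividing and take on the function of that end. The tip of the hypostome acts as an organizer in which Wnt ligands signal through β-catenin, the tentacles are loaded with stinging cells and sensory nerve cells, and the gland cells of the hypostome secrete mucus and digestive enzymes. The basal disk fixes the animal to its support with a secreted adhesive, and its cells carry a peroxidase activity that is widely used as the histochemical marker of the foot.

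Each library held 18152192 to 20914365 counts in Foot and 15335535 to 22105585 in Head. Of the 23396 transcripts in the reference, 17676 had enough counts to be tested, and 18885 to 19085 were detected in a Foot library and 18737 to 19066 in a Head library. The rank correlation (Spearman) of transcript levels was 0.991 to 0.994 between Foot libraries, 0.988 to 0.993 between Head libraries and 0.830 to 0.842 across the ends. No 2 libraries of one end agreed within sampling noise, and none stood apart from its group. The tissue markers went with the labels. Peroxidase matches summed to 4442 to 5086 CPM (counts per 1000000, with library sizes scaled by the TMM factors) in Foot against 650.2 to 682.3 CPM in Head. The organizer genes wnt3, brachyury1, sp5 and axin1, together with wnt7 and wnt9/10c, were all called higher in Head. Because these are bulk samples, fewer cells of a type and less RNA per cell cannot be told apart in any value given here.

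The 2 ends differed in most transcripts. edgeR's quasi-likelihood test called 11860 transcripts at a Benjamini-Hochberg adjusted p under 0.01, which was 67.1% of those tested. 6679 (37.8%) were higher in Foot and 5181 (29.3%) were higher in Head. These shares are the background for every list below, and the median log2 fold change over all transcripts tested was 0.13 (Foot over Head, so that positive values mean higher in Foot). In 33.8% of transcripts every Foot library lay above every Head library, and in 26.5% every Foot library lay below every Head library. In this fit Foot had more calls of modest size and Head more calls of large size. The excess of calls in Foot depended on the fit. With the 10 Foot and Head libraries alone it was gone (5469 higher in Foot and 5470 in Head). A difference beyond 2-fold was called for 3105 transcripts in Foot and 2537 in Head, beyond 4-fold for 873 in Foot and 1392 in Head, and beyond 64-fold for 127 in Foot and 140 in Head. The 268 transcripts more than 16-fold higher in Foot made up 6.77 to 7.09% of the scaled counts of a Foot library and 0.060 to 0.063% of a Head library. The 407 transcripts more than 16-fold higher in Head took 0.107 to 0.119% of a Foot library and 8.76 to 9.77% of a Head library. These shares were chosen by the same fold change and only describe its weight in the libraries.

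**Figure D1:**
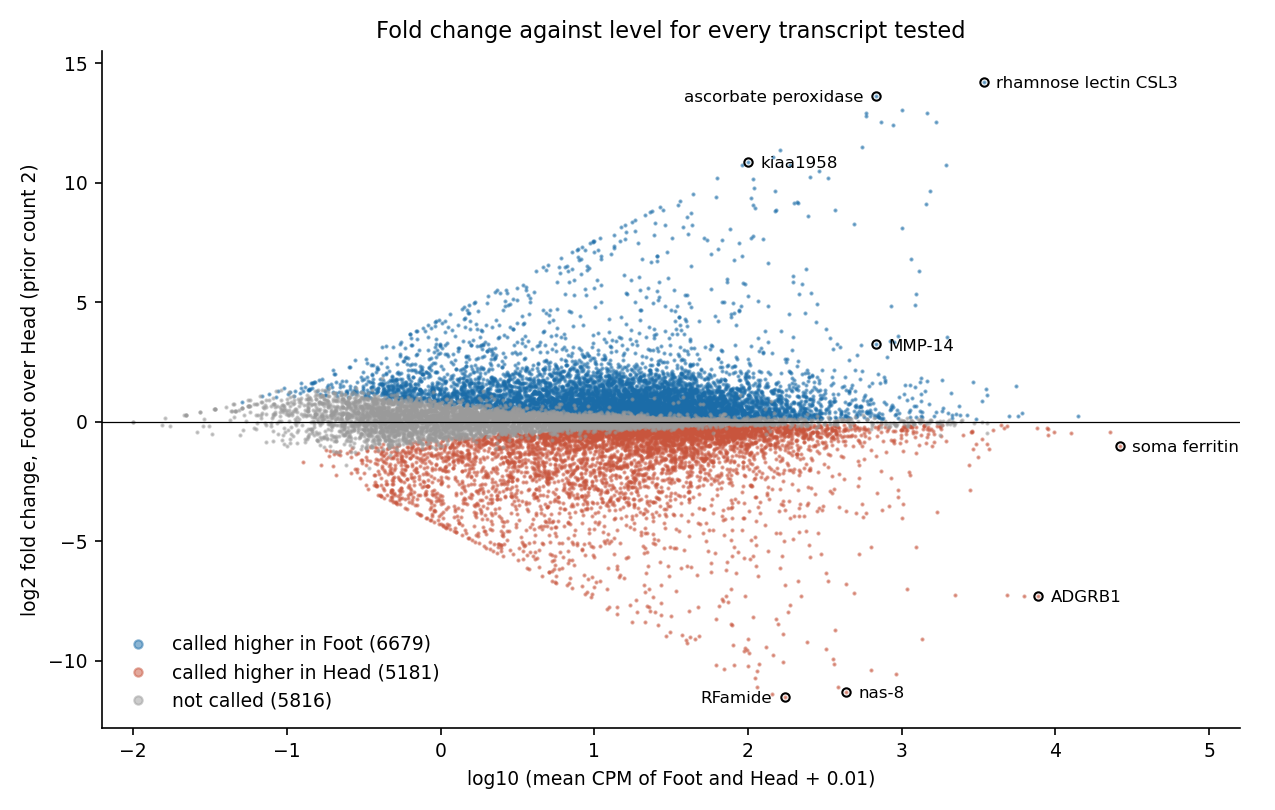
Log2 fold change of Foot over Head (vertical axis, prior count 2) against the log10 mean CPM of both ends (horizontal axis) for the 17676 transcripts tested, with 6679 called higher in Foot, 5181 called higher in Head and 5816 not called. Circled transcripts are named in the text, and both arms reach beyond a log2 fold change of 10.

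Names below are the best protein match given with the study, and many are vertebrate, worm or insect names for *Hydra* transcripts, so "match" is written where the name is not one the study used for the gene. Reads of close copies and isoforms could have been shared between them by the counting, and levels of near-identical transcripts are uncertain for that reason. Of the 2394 named transcripts tested, 1305 came from tables that the study had selected as Foot or Head specific on these libraries. For lists filled from those tables the count of calls is therefore not independent evidence of a direction, and the number is given beside each count. Among the 1360 named transcripts from tables ordered by identifier alone, 480 (35.3%) were higher in Foot and 508 (37.4%) higher in Head, with a median of 0.026. In what follows, ± after a mean is the SD of 5 libraries, and ± after a log2 fold change is the SE of the test's own estimate. Adjusted p-values are those of the edgeR test over all 17676 transcripts. A transcript with no count in all 5 libraries of one end has only a bound on its fold, computed against 3 counts over that group. A transcript with 1 to 3 counts there is given as a ratio of summed counts with a 95% exact interval that covers counting error only.

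The largest differences toward the Foot among named transcripts were found in peroxidases, sugar-binding lectins and single surface or secreted proteins. Of these, 6 matches to ascorbate peroxidase were tested, heme enzymes that oxidise small molecules with hydrogen peroxide, and 5 were higher in Foot and 1 in Head, with a median of 5.75 (5 of the 6 came from the Foot and Head tables). The match R027812c0g2_i01 had 1372, 1345, 1366, 1323 and 1375 CPM in the Foot libraries against 0 CPM in all 5 Head libraries (at least 35021-fold higher in Foot, adjusted p = 6.47e-20). The match R032900c0g1_i01 had 1393, 1510, 1411, 1535 and 1443 CPM in the Foot libraries against 0.152, 0.0725, 0.151, 0.107 and 0.215 CPM in the Head libraries (log2 fold change 12.53 ± 0.67, adjusted p = 1.82e-23). Both were nearly constant across the Foot libraries and at or close to 0 in the Head. Another abundant copy, R038155c0g1_i01, was not confined to one end, with 2287, 1688, 1631, 1652 and 1630 CPM in the Foot libraries against 639, 669.8, 638, 651 and 644 CPM in the Head libraries (log2 fold change 1.46 ± 0.17, adjusted p = 6.63e-11). R040071c2g1_i01 was at 28.5 to 35.8 CPM in Foot against 0 to 0.107 CPM in Head and R032065c0g1_i01 at 2.13 to 4.43 CPM in Foot against 0.0536 to 0.304 CPM in Head. The exception was R033238c0g1_i05, which was higher in Head, with 0.246 to 0.807 CPM in Foot against 10.9 to 13.7 CPM in Head (log2 fold change -4.37 ± 0.27, adjusted p = 3.94e-22).

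Rhamnose-binding lectins bind sugars at the cell surface and were first described from fish eggs. Of 8 matches tested, 6 were higher in Foot and 2 in Head (7 from the Foot and Head tables), and the median was 10.48, or 11.93 with the members that had no count at one end set at their bound. A CSL3 match (R033588c0g1_i01) had 5986, 6638, 6830, 7258 and 7335 CPM in the Foot libraries against 0.0759, 0.145, 0.0755, 0.322 and 0.591 CPM in the Head libraries (log2 fold change 14.24 ± 0.92, adjusted p = 1.36e-20). A further CSL3 match (R039168c2g2_i02) had 3031, 3355, 3419, 3393 and 3389 CPM in the Foot libraries against 0.228, 0.58, 0.151, 0.697 and 0.591 CPM in the Head libraries. Another (R041141c2g1_i01) had 1223, 1158, 1254, 1100 and 1111 CPM in the Foot libraries against 0, 0, 0, 0 and 0.215 CPM in the Head libraries. These 3 transcripts were below 1 CPM in every Head library. In the CSL1 match R041141c0g1_i01 the Foot libraries were less alike, with 138, 140.2, 157, 92.8 and 101 CPM in the Foot libraries against 0 CPM in all 5 Head libraries, so that Foot 5 and Foot 6 lay below the other Foot libraries. The ELEL-1 match R040205c0g1_i02 showed the same split, with 29.8, 31.3, 29.9, 20.8 and 21.2 CPM in the Foot libraries against 2.43, 3.26, 1.74, 1.77 and 1.88 CPM in the Head libraries (log2 fold change 3.54 ± 0.18, adjusted p = 3.43e-25). Its lowest Foot library was still far above its highest Head library. The CSL3 match R015546c0g2_i01 had 172 to 195 CPM in Foot against 0 CPM in Head. The family also had a Head member, the CSL3 match R041254c3g1_i01, with 32.3, 33.5, 35.4, 31.5 and 30.6 CPM in the Foot libraries against 1270, 1137, 1320, 1115 and 1270 CPM in the Head libraries (log2 fold change -5.22 ± 0.33, adjusted p = 7.84e-21). R032703c0g1_i01 was higher in Head too at 2.36 to 3.71 CPM in Foot against 43.7 to 47.3 CPM in Head.

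Several single products were also close to 0 in the Head. Teneurin-1 (R031070c0g1_i01), a match to a transmembrane protein that joins neighbouring cells, had 2805, 2996, 2923, 2915 and 2927 CPM in the Foot libraries against 0.228, 0.363, 0.302, 0.215 and 0.269 CPM in the Head libraries (log2 fold change 12.91 ± 0.69, adjusted p = 2.53e-24). A match to 1-phosphatidylinositol phosphodiesterase (R016836c0g1_i01), an enzyme that cleaves phosphatidylinositol, had 343 to 407 CPM in Foot against 0 to 0.456 CPM in Head (log2 fold change 10.76 ± 0.42, adjusted p = 7.31e-29). An exo-arabinofuranosidase match (R040867c0g1_i01), a sugar hydrolase, had 264 to 303 CPM in Foot against 0 to 0.152 CPM in Head. The transcript kiaa1958 (R023095c0g1_i01), one of the genes the study lists by name, had 193 to 203 CPM in Foot against 0 CPM in Head. The 2 periculin transcripts called higher in Foot (R035538c0g2_i02 at 11.3 to 17.2 CPM in Foot against 0.161 to 0.653 CPM in Head, and R035538c0g2_i04 at 2.24 to 4.47 CPM in Foot against 0 to 0.377 CPM in Head) belong to a family of antimicrobial peptides of *Hydra*. Their identifiers differ only in the last part, so they are not counted as separate genes. The call of R035538c0g2_i04 was lost with DESeq2 (adjusted p = 0.589). A further periculin (R013957c0g1_i01) was higher in Head, with 1.72 to 2.47 CPM in Foot against 10.6 to 12.5 CPM in Head (3 of 3 tested members came from the Foot and Head tables). Among transcripts that were abundant at both ends, Calreticulin (R015676c0g2_i01), a chaperone of the endoplasmic reticulum, had 4772 to 5087 CPM in Foot against 2139 to 2468 CPM in Head (log2 fold change 1.11 ± 0.031, adjusted p = 8.21e-36). A Properdin match (R040912c1g4_i03), a protein of thrombospondin repeats, had 4046 to 4795 CPM in Foot against 1272 to 1680 CPM in Head (log2 fold change 1.65 ± 0.058, adjusted p = 1.26e-31).

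**Figure D2:**
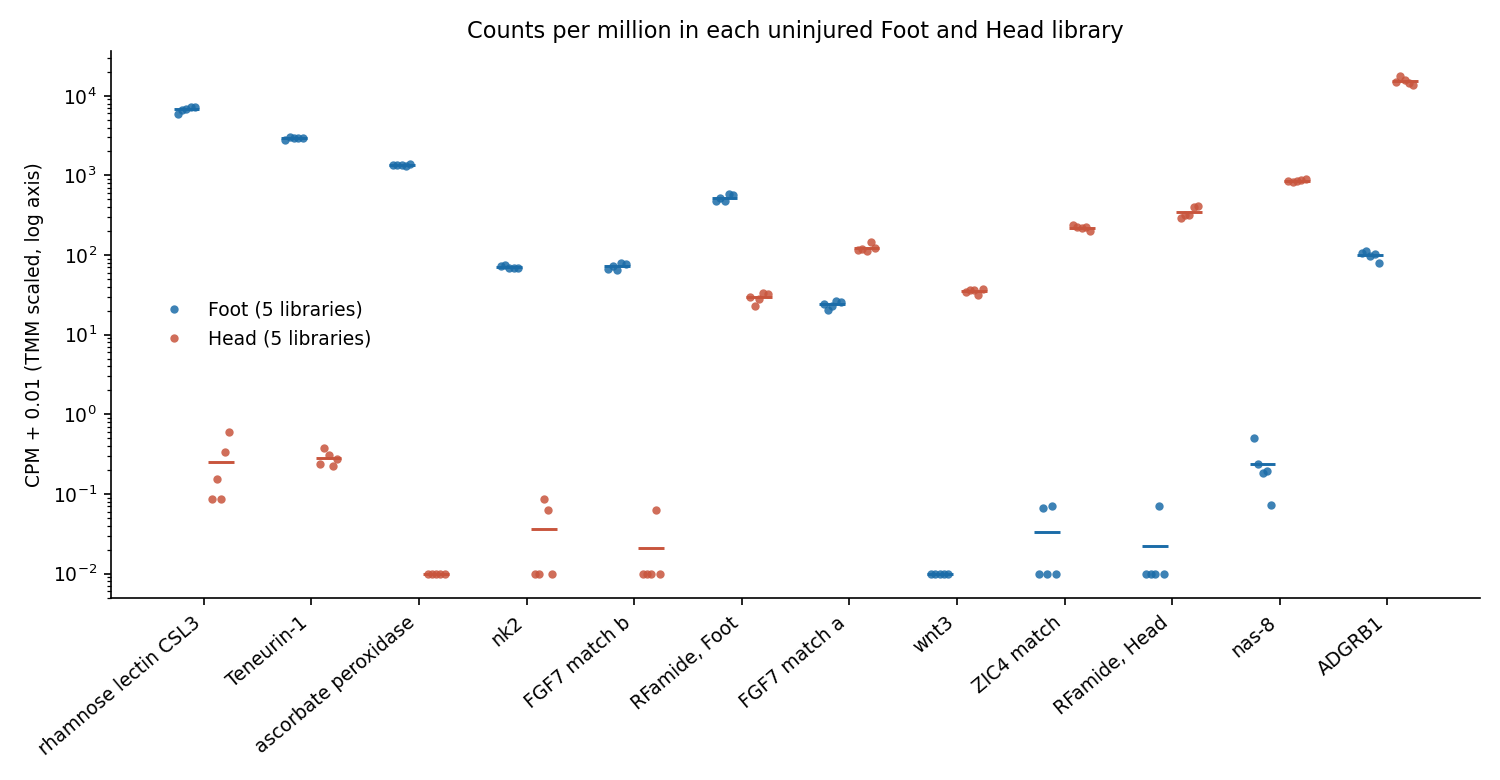
CPM plus 0.01 on a log axis in each of the 5 Foot and 5 Head libraries (points, with the mean as a bar) for 12 transcripts, from those higher in Foot at the left to those higher in Head at the right. No Foot point overlaps a Head point in any of the 12, and the peroxidase match R027812c0g2_i01 and wnt3 are at 0 in all libraries of one end.

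Of the Wnt pathway lists, the ligands had the median farthest from 0. Of 9 ligands tested, 8 were higher in Head and 1 in Foot, with a median of -6.67, or -6.73 with the members that had no count at one end set at their bound (7 of the 9 came from the Foot and Head tables). The ligand wnt3 (R033453c0g1_i01), which marks the organizer at the tip of the hypostome, had 0 CPM in all 5 Foot libraries against 34.2, 36.9, 36.1, 31.7 and 37.3 CPM in the Head libraries (at least 1004-fold higher in Head, adjusted p = 1.64e-27). The Wnt-1 match R020711c0g1_i01 had 0 CPM in Foot against 8.85 to 13.4 CPM in Head (at least 304-fold higher in Head, adjusted p = 1.61e-18). These ligands had no count in any Foot library and were above 8 CPM in every Head library. For wnt7 (R026000c0g1_i01) the values were 0.109, 0, 0, 0 and 0 CPM in the Foot libraries against 83.0, 78.4, 77.9, 73.5 and 85.9 CPM in the Head libraries (3408-fold higher in Head, interval 943 to 28144, adjusted p = 9.35e-29). The ligand wnt9/10c (R035762c0g1_i01) had 0 to 0.0573 CPM in Foot against 22.4 to 27.5 CPM in Head. A Wnt-4 match (R027547c0g1_i01) had 0 to 0.0615 CPM in Foot against 12.98 to 14.7 CPM in Head, and a Wnt-4a match (R032917c0g1_i01) had 0.186 to 0.403 CPM in Foot against 24.4 to 35.2 CPM in Head. Not every ligand was missing from the Foot. The Wnt-5a match R009822c0g1_i01 had 1.91 to 3.40 CPM in Foot against 39.7 to 48.7 CPM in Head (log2 fold change -3.85 ± 0.13, adjusted p = 6.59e-33). A second Wnt-4 match (R029068c0g1_i01) had 3.90 to 5.66 CPM in Foot against 11.05 to 13.4 CPM in Head (log2 fold change -1.36 ± 0.19, adjusted p = 5.99e-09). The Wnt-8b match R036877c0g1_i01 ran the other way, with 33.9, 30.7, 29.5, 31.5 and 27.8 CPM in the Foot libraries against 20.1, 16.4, 21.5, 19.7 and 20.7 CPM in the Head libraries (log2 fold change 0.64 ± 0.11, adjusted p = 1.69e-06). In the mid-body this ligand was lower than at both ends, at 3.25 to 4.50 CPM in HR_0hpa and 2.92 to 6.49 CPM in FR_0hpa.

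Receptors were divided between the ends. A Frizzled-8 match (R033439c0g2_i01) had 116, 109.5, 106, 112 and 109 CPM in the Foot libraries against 14.5, 18.4, 18.9, 16.6 and 20.6 CPM in the Head libraries (log2 fold change 2.62 ± 0.088, adjusted p = 1.47e-32). A Frizzled-5 match (R032123c0g1_i01) had 30.2, 30.6, 29.1, 28.5 and 24.6 CPM in the Foot libraries against 118, 122, 129, 120.0 and 122 CPM in the Head libraries (log2 fold change -2.09 ± 0.078, adjusted p = 1.82e-30). Frizzleds are the seven-pass receptors that bind Wnt ligands, so each end had a receptor transcript several times above the other end. A Frizzled-1 match (R020242c0g1_i01) was called higher in Foot by a log2 fold change of only 0.17, with overlapping groups at 54.4 to 61.3 CPM in Foot against 46.9 to 54.8 CPM in Head. The call was lost under 2 other scalings, with 0.11 for relative log expression and 0.084 for upper-quartile factors, and when Foot 1 (0.133), Foot 5 (0.150), Head 5 (0.138) or Head 6 (0.145) was left out. It was also lost with DESeq2 (0.107), with the 10 Foot and Head libraries alone (0.068) and against a fold of 1.2. The LRP4 match R026758c0g1_i02, of the family of Wnt co-receptors, was higher in Head, with 16.8 to 21.4 CPM in Foot against 85.7 to 87.7 CPM in Head (log2 fold change -2.16 ± 0.063, adjusted p = 2.53e-35). For the secretion of ligands, wntless (R038745c0g1_i02), which carries them to the surface, was slightly higher in Head (log2 fold change -0.40 ± 0.079, adjusted p = 1.33e-05). The porcupine match R000898c0g1_i02, an enzyme that attaches the lipid of the ligands, had 7.90 ± 0.739 CPM in Foot against 7.05 ± 1.04 CPM in Head and did not pass the test (adjusted p = 0.251).

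Secreted antagonists of the pathway were found at both ends, 2 higher in Foot and 2 in Head of the 4 tested (all 4 from the Foot and Head tables). In Foot these were sFRP (R035800c0g3_i01), a soluble decoy with a Frizzled domain, at 2.86 to 4.03 CPM in Foot against 0 to 0.304 CPM in Head, and a sFRP3 match (R035800c0g5_i01) at 3.06 to 4.59 CPM in Foot against 0.269 to 0.679 CPM in Head. In Head they were a Dkk3 match (R025713c0g1_i01) at 0.403 to 1.48 CPM in Foot against 7.24 to 9.49 CPM in Head and a match to WIF1 (R029892c0g1_i01), which binds Wnt ligands directly, at 0.123 to 0.401 CPM in Foot against 1.81 to 3.71 CPM in Head. Inside the cell, all 5 transcripts tested were higher in Head, with a median of -1.37 (2 of the 5 from the Foot and Head tables). The T-box factor brachyury1 (R035976c0g2_i01) had 5.63, 4.01, 4.95, 4.98 and 4.16 CPM in the Foot libraries against 172, 149.8, 150.5, 142 and 138 CPM in the Head libraries (log2 fold change -4.95 ± 0.13, adjusted p = 5.37e-37). For sp5 (R029443c0g1_i01), a zinc finger factor that represses wnt3 in *Hydra*, the values were 57.3 to 67.1 CPM in Foot against 235 to 298 CPM in Head (log2 fold change -2.14 ± 0.11, adjusted p = 2.24e-24). The scaffold axin1 (R031348c0g1_i01) of the β-catenin destruction complex had 20.4 to 25.9 CPM in Foot against 58.4 to 71.2 CPM in Head (log2 fold change -1.37 ± 0.070, adjusted p = 2.54e-24). The differences in tcf (R035844c0g2_i01; log2 fold change -0.52 ± 0.060, adjusted p = 4.39e-11), the DNA-binding partner of β-catenin, and in the corepressor tle3 (R040370c0g1_i01; log2 fold change -0.51 ± 0.045, adjusted p = 5.33e-15) were below 2-fold.

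Transcripts of the BMP pathway, which patterns body axes through ligands of the TGF-β family, their antagonists and the proteases that free them, had members higher in Foot and members higher in Head among ligands, antagonists and proteases. Of 5 ligands tested 3 were higher in Foot and 1 in Head, with a median of 2.89 (3 from the Foot and Head tables). A BMP7 match (R020729c0g1_i01) had 22.3, 21.7, 22.7, 17.7 and 19.1 CPM in the Foot libraries against 0.228, 0.363, 0.226, 0.107 and 0.269 CPM in the Head libraries (log2 fold change 5.93 ± 0.37, adjusted p = 3.21e-22). The Nodal match R031612c0g1_i01 had 7.43, 5.96, 6.73, 2.64 and 6.33 CPM in the Foot libraries against 0.0759, 0, 0.0755, 0.0536 and 0.107 CPM in the Head libraries, with Foot 5 the lowest of its group and still above all Head libraries (log2 fold change 5.13 ± 0.55, adjusted p = 2.42e-15). A DVR-1 match (R021484c0g1_i02) had 4.16 to 5.97 CPM in Foot against 0.218 to 1.24 CPM in Head. Of 2 GDF8 matches, ligands of the activin branch, R001669c0g1_i01 did not pass the test at 2.84 to 4.00 CPM in Foot against 3.48 to 4.73 CPM in Head (adjusted p = 0.36). The other, R037547c0g1_i01, was only just called higher in Head, with 1.89 to 2.70 CPM in Foot against 2.81 to 4.51 CPM in Head (adjusted p = 0.00699). This call was lost when Foot 1, 2, 5 or 6 or Head 3 or 5 was left out (log2 fold changes of -0.75 to -0.66). The activin receptor 2A match R034313c0g1_i01 was higher in Foot, with 66.4 to 71.9 CPM in Foot against 44.8 to 49.4 CPM in Head.

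Transcripts listed as extracellular antagonists of BMP ligands were called higher in Foot for 3 of 6 and in Head for 2, with a median of 0.28 (2 from the Foot and Head tables). A DAN domain family member 5 match (R018335c0g1_i01) was not on this list, so these counts leave it out. It had a mean of 18.8 CPM in Foot and no count in any Head library (at least 486-fold higher in Foot). A Gremlin-2 match (R031036c0g1_i01) had 48.6, 48.7, 47.5, 49.0 and 47.5 CPM in the Foot libraries against 8.88, 8.41, 8.45, 7.40 and 9.03 CPM in the Head libraries (log2 fold change 2.50 ± 0.21, adjusted p = 8.62e-16). A Noggin match (R022197c0g1_i01) had 31.0 to 36.2 CPM in Foot against 16.8 to 22.7 CPM in Head (log2 fold change 0.86 ± 0.13, adjusted p = 7.19e-08). A Chordin match (R034952c0g1_i02) was higher in Head with 31.2, 28.8, 34.0, 28.0 and 30.8 CPM in the Foot libraries against 127, 125, 114, 125 and 119 CPM in the Head libraries (log2 fold change -1.99 ± 0.10, adjusted p = 1.44e-25). Antagonists of the same ligand family thus had their higher level at different ends. Gremlin-2 was at 0 to 0.0833 CPM in HR_0hpa and 0 to 0.122 CPM in FR_0hpa and Noggin at 0.93 to 1.46 CPM in HR_0hpa and 0.382 to 1.15 CPM in FR_0hpa, so for these antagonists both ends were above the mid-body. The Gremlin-1 match R035707c0g1_i02 was at 24.3 to 26.8 CPM in Foot against 28.2 to 36.8 CPM in Head and did not pass the test (adjusted p = 0.0317). It passed toward the Head with relative log expression factors (log2 fold change -0.36), upper-quartile factors (-0.38), DESeq2 (-0.36) and the 10 libraries alone (-0.39). The follistatin-related match R020006c0g1_i01 was higher in Head, with 12.7 to 16.5 CPM in Foot against 17.2 to 20.3 CPM in Head. That call was lost against a fold of 1.2 (log2 fold change -0.415), without the libraries numbered 5 and 6 (-0.383) and in those libraries alone (-0.453). Tolloid proteases cut Chordin and release the ligand. Among the 6 tolloid, BMP1 and nas-30 matches on this list, 2 passed toward the Foot and 3 toward the Head, with a median of -0.43 (2 from the Foot and Head tables). The tolloid transcript tld (R035649c0g1_i01) had 159, 165, 158, 164 and 162 CPM in the Foot libraries against 1.22, 1.23, 1.74, 1.18 and 1.61 CPM in the Head libraries (log2 fold change 6.75 ± 0.22, adjusted p = 3.75e-33). The nas-30 match on the same list (R035594c1g1_i01), which carries a worm protease name rather than a tolloid name, had 1.58, 2.35, 2.82, 2.71 and 3.23 CPM in the Foot libraries against 220.4, 220.0, 225, 236 and 239 CPM in the Head libraries (log2 fold change -6.44 ± 0.14, adjusted p = 5.37e-41). The Foot and the Head therefore each had a protease transcript of this list that was under 4 CPM in every library of the other end. A Tolloid-like 2 match (R023496c0g1_i02) was higher in Head, with 55.7 to 64.4 CPM in Foot against 114 to 131 CPM in Head. The 3 BMP1 matches (R038165c0g1_i02, R038495c0g2_i08 and R039714c0g2_i01) had log2 fold changes of -0.10, which did not pass the test, -0.75 and 0.78.

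Fibroblast growth factors signal through receptor tyrosine kinases and are used in *Hydra* in bud detachment and tissue boundaries. Of 10 ligand matches 4 were higher in Foot and 4 in Head (6 from the Foot and Head tables), with a median of -0.06. Closely named ligands differed. The FGF7 match R027901c0g2_i01 had 67.7, 72.1, 64.5, 79.8 and 78.2 CPM in the Foot libraries against 0, 0, 0, 0.0536 and 0 CPM in the Head libraries (5597-fold higher in Foot, interval 1004 to 221092, adjusted p = 1.89e-31). The FGF7 match R026281c0g1_i01 had 24.3, 20.6, 23.0, 26.8 and 25.7 CPM in the Foot libraries against 114, 118, 114, 147 and 124 CPM in the Head libraries (log2 fold change -2.35 ± 0.14, adjusted p = 1.10e-21). Both were low in the mid-body. The first was at 0.249 to 0.769 CPM in HR_0hpa and 0 to 0.127 CPM in FR_0hpa, and the second at 0.499 to 1.25 CPM in HR_0hpa and 0.132 to 0.798 CPM in FR_0hpa. An FGF8 match (R040115c0g5_i01) was higher in Foot, with 4.97 to 7.63 CPM in Foot against 0.43 to 0.906 CPM in Head. So was an FGF1 match (R068860c0g1_i01), at 2.61 to 3.11 CPM in Foot against 0 CPM in Head (at least 73.3-fold higher in Foot, adjusted p = 4.99e-12). The FGF12 match R031431c0g1_i01 was also higher in Foot, with 87.7 to 106 CPM in Foot against 51.1 to 57.7 CPM in Head. In Head the FGF9/20 match R018518c0g1_i01 was at 1.204 to 1.69 CPM in Foot against 10.3 to 15.6 CPM in Head and the FGF1 match R028472c0g1_i02 at 5.91 to 7.996 CPM in Foot against 37.0 to 42.6 CPM in Head. All 10 ligands were called higher in Foot than in both mid-body groups, and 8 were called higher in Head than in both (of all transcripts tested, 33.7% were higher in Foot than in HR_0hpa and 33.7% than in FR_0hpa, and 37.9% were higher in Head than in HR_0hpa and 37.7% than in FR_0hpa).

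FGF receptors leaned to the Foot, with 7 of 10 higher in Foot, 1 higher in Head and a median of 1.46 (4 from the Foot and Head tables). On a scale per length (TPM, counts over length as a share of 1000000 per library, from effective lengths in the FPKM table), the match R037379c0g1_i03 had the highest level of the 10 in Foot at 60.7 ± 2.31 TPM in Foot against 17.0 ± 1.32 TPM in Head. The match R025924c0g1_i01 came next at 39.0 ± 2.15 TPM in Foot against 1.09 ± 0.464 TPM in Head. In CPM the match R025924c0g1_i01 had 47.4, 45.6, 46.7, 43.6 and 50.7 CPM in the Foot libraries against 1.75, 1.45, 0.83, 0.805 and 2.15 CPM in the Head libraries (log2 fold change 4.96 ± 0.20, adjusted p = 4.97e-29). The match R041055c5g2_i01 was the exception. It had 39.3, 33.3, 35.1, 31.5 and 34.7 CPM in the Foot libraries against 188, 179.6, 186, 178 and 188 CPM in the Head libraries (log2 fold change -2.398 ± 0.081, adjusted p = 2.21e-32). It was the receptor of highest level per length in Head at 13.9 ± 1.17 TPM in Foot against 68.4 ± 3.24 TPM in Head. The matches R040116c0g2_i01 (log2 fold change 4.46 ± 0.29, adjusted p = 3.61e-21) and R040508c0g1_i01 (log2 fold change 3.23 ± 0.11, adjusted p = 9.06e-33) were the next largest differences toward the Foot. R018423c0g1_i02 did not pass the test at 35.8 ± 1.38 CPM in Foot against 39.7 ± 3.12 CPM in Head (adjusted p = 0.0266). It passed toward the Head under several other scalings (log2 fold changes of -0.23 with upper-quartile factors and -0.21 with relative log expression).

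Of 8 transcripts of other signalling pathways 2 were higher in Foot and 4 in Head, with a median of -0.29 (1 from the Foot and Head tables). A VEGF-C match (R035588c0g1_i01), a growth factor of vessels in vertebrates, had 1291, 1419, 1260, 1265 and 1194 CPM in the Foot libraries against 647, 694, 627, 589 and 553 CPM in the Head libraries (log2 fold change 1.05 ± 0.071, adjusted p = 2.23e-19). A second VEGF-C match (R003492c0g1_i01) was slightly higher in Head, with 164 to 204 CPM in Foot against 243 to 269 CPM in Head. The EphA4 match R040394c0g1_i02, a receptor for ephrins on neighbouring cells, had 46.5, 48.1, 50.5, 50.2 and 48.9 CPM in the Foot libraries against 553, 586, 565, 582 and 553 CPM in the Head libraries (log2 fold change -3.54 ± 0.046, adjusted p = 1.23e-50). The ephrin-B2a match R028958c0g2_i01 had 85.8 ± 4.14 CPM in Foot against 91.8 ± 6.74 CPM in Head and did not pass the test (adjusted p = 0.107). It passed toward the Head with relative log expression factors (log2 fold change -0.16), upper-quartile factors (-0.19), DESeq2 (-0.16) and the 10 libraries alone (-0.20). Of the Notch pathway, the ligand dll1 (R017255c0g1_i02; log2 fold change 0.69 ± 0.15, adjusted p = 5.30e-05) and a match to the feedback inhibitor NRARP (R034994c0g1_i01; log2 fold change 1.33 ± 0.12, adjusted p = 4.78e-14) were higher in Foot. A match to the repressor HES-2 (R023360c0g1_i04; log2 fold change -2.17 ± 0.13, adjusted p = 4.04e-22) was higher in Head. The Indian hedgehog match R014842c0g1_i02 was higher in Head, with 2.21 to 4.35 CPM in Foot against 7.02 to 12.2 CPM in Head. A second hedgehog match (R040442c2g1_i11) did not pass the test (adjusted p = 0.292).

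Of 45 transcription factors tested, 19 were higher in Foot and 25 in Head, with a median of -0.62 (18 from the Foot and Head tables). The homeobox gene nk2 (R037127c0g1_i01), known from the *Hydra* foot, had 72.4, 74.1, 68.7, 69.3 and 67.9 CPM in the Foot libraries against 0, 0, 0.0755, 0.0536 and 0 CPM in the Head libraries (2733-fold higher in Foot, interval 756 to 22573, adjusted p = 6.18e-39). Of the factors higher in Foot, 2 had no count in any Head library. A match to VBP/HLF (R023356c0g1_i01), of the PAR family of leucine zippers, had 42.2 to 55.8 CPM in Foot against 0 CPM in Head. A match to the zinc finger repressor Gfi-1b (R032101c0g1_i01) had 36.1 to 46.3 CPM in Foot against 0 CPM in Head. A match to senseless (R025013c0g1_i01), a fly relative of Gfi-1, had 12.8 to 16.4 CPM in Foot against 0 to 0.302 CPM in Head. The Gfi-1 match R018264c0g1_i01 was higher in Head, with 1.48 to 3.57 CPM in Foot against 27.5 to 35.9 CPM in Head (log2 fold change -3.46 ± 0.13, adjusted p = 6.78e-30). Members of this zinc finger family had opposite directions. The genes that the study lists by name, outside the pathway lists, gave 17 tested transcripts, 11 higher in Foot and 3 in Head, with a median of 0.69 (6 from the Foot and Head tables). Of these, dlx2 (R029042c0g1_i02) had 80.6 to 93.8 CPM in Foot against 0.268 to 2.05 CPM in Head, gata3 (R023611c0g1_i01) 57.5 to 70.4 CPM in Foot against 4.02 to 7.24 CPM in Head and the forkhead gene fd4 (R032408c0g1_i01) 61.1 to 69.6 CPM in Foot against 9.28 to 13.6 CPM in Head, all higher in Foot. The distal-less relative dlx1 (R035295c0g1_i01) was slightly higher in Head (log2 fold change -0.27 ± 0.058, adjusted p = 4.95e-05). Smaller differences toward the Foot were found for matches to RUNX1 (R015930c0g1_i01; log2 fold change 1.76 ± 0.13, adjusted p = 6.77e-18) and NR2E1 (R029923c0g1_i02; log2 fold change 1.85 ± 0.11, adjusted p = 7.87e-22).

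In the Head, a match to the zinc finger factor ZIC4 (R028263c0g1_i01), which is needed for tentacle identity in *Hydra*, had 0, 0.0573, 0, 0.0615 and 0 CPM in the Foot libraries against 236, 224, 216, 225 and 203 CPM in the Head libraries (9393-fold higher in Head, interval 2600 to 77564, adjusted p = 7.58e-38). A match to the homeobox gene not2 (R020062c0g1_i01) had 0 to 0.186 CPM in Foot against 20.9 to 27.2 CPM in Head. Forkhead matches were found at this end as well, FoxI2 (R024968c0g1_i01) at 0 to 0.246 CPM in Foot against 41.4 to 52.3 CPM in Head, FoxE4 (R026200c0g1_i01) at 0 to 0.0615 CPM in Foot against 12.0 to 14.3 CPM in Head and FoxB1 (R068235c0g1_i01) at 0 to 0.0621 CPM in Foot against 14.8 to 18.5 CPM in Head. The OTX1B match R032644c0g2_i01, of a family that marks anterior ends in bilaterians, had 0 to 0.497 CPM in Foot against 8.83 to 11.2 CPM in Head. Paired and HMG box factors of nerve cells in other animals gave both directions. One Rx match (R032401c0g1_i01) was higher in Head, with 3.79 to 6.13 CPM in Foot against 61.0 to 77.4 CPM in Head. Another (R031430c0g1_i01) was higher in Foot, with 9.06 to 13.3 CPM in Foot against 2.90 to 5.11 CPM in Head. One SOX2 match (R031323c0g1_i02) was higher in Head, with 0.975 to 1.97 CPM in Foot against 32.0 to 39.3 CPM in Head. Another (R014451c0g1_i01) was higher in Foot, with 54.9 to 61.0 CPM in Foot against 29.1 to 35.2 CPM in Head. The Fezf2 matches were likewise split, with R036225c0g1_i02 at -3.23 and R020202c0g1_i01 at 1.95 on the log2 scale. The immediate-early gene fos (R029832c0g1_i01) varied among the Foot libraries, with 19.1, 11.4, 5.76, 10.52 and 4.28 CPM in the Foot libraries against 8.88, 9.87, 8.15, 9.65 and 8.71 CPM in the Head libraries, and did not pass the test (adjusted p = 0.544). Without Foot 1 its log2 fold change was -0.185, against 0.17 with all libraries.

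Transcripts of neuropeptide precursors differed between the ends. In all, 6 neuropeptide precursors were tested, 5 of them higher in Head and 1 in Foot (5 from the Foot and Head tables), with a median of -7.68. RFamide peptides act on muscle and on gated channels in cnidarians. The RFamide precursor R025918c0g1_i01 had 0, 0, 0, 0.0615 and 0 CPM in the Foot libraries against 288, 317, 319.6, 397 and 409 CPM in the Head libraries (30259-fold higher in Head, interval 5431 to 1195227, adjusted p = 7.39e-27). The RFamide precursor R035154c0g1_i01 had 479.8, 519, 484, 587 and 561 CPM in the Foot libraries against 29.8, 23.0, 27.8, 33.6 and 32.6 CPM in the Head libraries (log2 fold change 4.16 ± 0.14, adjusted p = 2.15e-32). These precursors had opposite directions, and 3 further RFamide precursors were higher in Head. R024608c0g1_i01 had 0.459 to 1.21 CPM in Foot against 136 to 149 CPM in Head, R035266c0g2_i01 had 0 to 0.172 CPM in Foot against 70.4 to 94.2 CPM in Head, and R022142c0g1_i01 had 0 to 0.307 CPM in Foot against 48.2 to 59.3 CPM in Head. The LWamide precursor R036538c0g1_i01 was abundant at both ends, with 441, 404, 370.4, 402 and 389.9 CPM in the Foot libraries against 627, 699, 765, 724 and 822 CPM in the Head libraries (log2 fold change -0.86 ± 0.074, adjusted p = 2.09e-15). In the mid-body it was at 28.1 to 34.8 CPM in HR_0hpa and 42.5 to 49.2 CPM in FR_0hpa. The precursors together summed to 855.6 to 990.4 CPM in Foot and 1220 to 1565 CPM in Head, against 33.9 to 43.8 CPM in HR_0hpa and 62.7 to 76.0 CPM in FR_0hpa.

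Receptors of small transmitters were mostly higher in Head. Of 63 matches to amine receptors (dopamine, serotonin, histamine, adrenergic and muscarinic families) 16 were higher in Foot and 39 in Head, with a median of -2.18 (42 from the Foot and Head tables). In Head they included a D(1) dopamine receptor match (R022600c0g1_i01) at 0 to 0.184 CPM in Foot against 10.7 to 13.3 CPM in Head, a histamine H2 receptor match (R031169c0g1_i01) at 0.173 to 0.437 CPM in Foot against 22.7 to 27.2 CPM in Head and a serotonin receptor 2B match (R028935c0g1_i01) at 0 CPM in Foot against 2.18 to 4.83 CPM in Head. In Foot they included matches to the muscarinic receptor M2 (R055642c0g1_i01) at 5.83 to 11.4 CPM in Foot against 0 to 0.268 CPM in Head and to an alpha-1A adrenergic receptor (R020392c0g1_i01) at 4.83 to 6.61 CPM in Foot against 0 to 0.226 CPM in Head. Metabotropic glutamate receptors gave 2 higher in Foot and 18 in Head of 21 tested (17 from the Foot and Head tables), with a median of -3.17. The mGluR1 match R029714c0g1_i01 had 3.71, 4.13, 3.51, 3.20 and 2.61 CPM in the Foot libraries against 186, 188, 193, 181 and 180.2 CPM in the Head libraries (log2 fold change -5.71 ± 0.15, adjusted p = 1.67e-37). Against this direction, the mGluR3 match R038216c0g1_i01 had 43.4, 58.0, 54.6, 54.4 and 45.3 CPM in the Foot libraries against 0.228, 0.218, 0.151, 0.268 and 0.645 CPM in the Head libraries (log2 fold change 6.92 ± 0.27, adjusted p = 5.89e-27). Nicotinic receptor subunits, which form channels opened by acetylcholine, were higher in Head for 9 of 11 and in Foot for 1, with a median of -3.92 (9 from the Foot and Head tables). An alpha-7 match (R036593c0g1_i01) had 0.0576 to 0.516 CPM in Foot against 36.8 to 44.3 CPM in Head. The alpha-3 match R039478c1g1_i07 was the one higher in Foot, with 77.8 to 86.5 CPM in Foot against 50.1 to 56.6 CPM in Head (log2 fold change 0.64 ± 0.084, adjusted p = 1.15e-09).

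Peptide receptors did not share this lean. Of 33 tested, 15 were higher in Foot and 12 in Head, with a median of 0.35 (16 from the Foot and Head tables). A galanin receptor 2a match (R035570c0g1_i01) had 22.1, 20.8, 21.2, 21.6 and 23.9 CPM in the Foot libraries against 0 CPM in all 5 Head libraries (at least 566-fold higher in Foot, adjusted p = 2.09e-18). An orexin receptor 2 match (R008237c0g1_i01) had 5.28 to 8.74 CPM in Foot against 0 to 0.145 CPM in Head. The neuropeptide Y receptor type 4 match npyr4 (R014795c0g1_i01) was higher in Foot, with 28.2 to 36.7 CPM in Foot against 1.29 to 2.64 CPM in Head. Another match of the same name (R030600c0g1_i01) was higher in Head, with 0.109 to 0.23 CPM in Foot against 10.1 to 13.5 CPM in Head (log2 fold change -5.46 ± 0.32, adjusted p = 6.13e-24). Opsins, the light-sensing receptors, were split evenly, with 13 of 31 higher in Foot and 13 higher in Head and a median of 0.16 (19 from the Foot and Head tables). A GQ-coupled rhodopsin match (R021374c0g1_i01) had 0 CPM in Foot against 1.96 to 3.11 CPM in Head. An Opsin-5 match (R026696c0g2_i01) had 0 CPM in Foot against 2.15 to 2.74 CPM in Head. In the other direction a G0-coupled rhodopsin match (R054544c0g1_i01) had 2.19 to 3.17 CPM in Foot against 0 CPM in Head and an Rh1 match (R072075c0g1_i01) 4.64 to 6.31 CPM in Foot against 0 to 0.725 CPM in Head. Each end thus had opsin transcripts with no count in any library of the other end.

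Voltage-gated potassium and acid-sensing channels were mostly higher in Head, while TMEM175 matches were level. Of members named in tables ordered by identifier alone, 2 of 9 potassium channel subunits were higher in Foot and 7 in Head. The 1 acid-sensing channel from those tables was higher in Foot. Of 45 voltage-gated potassium channel subunits, which repolarise nerve and muscle membranes, 3 were higher in Foot and 36 in Head, with a median of -2.30 (31 from the Foot and Head tables). A subfamily G match (R032239c0g1_i02) had 0, 0, 0.0576, 0.0615 and 0.124 CPM in the Foot libraries against 73.2, 77.8, 75.5, 74.9 and 69.7 CPM in the Head libraries (log2 fold change -8.92 ± 0.41, adjusted p = 1.22e-29). A subfamily A match (R037120c0g1_i01) had 0.931 to 2.36 CPM in Foot against 59.6 to 71.0 CPM in Head. The subunits higher in Foot were a subfamily A match (R020091c0g1_i01) at 4.37 to 6.25 CPM in Foot against 0 to 0.152 CPM in Head, a subfamily H match (R023043c0g1_i01) at 4.37 to 7.17 CPM in Foot against 0.943 to 1.56 CPM in Head and a further subfamily A match (R005723c0g1_i01) at 3.497 to 5.90 CPM in Foot against 0.981 to 1.29 CPM in Head. The 45 subunits summed to 308.3 to 318.8 CPM in Foot and 1923 to 2046 CPM in Head, against 138.1 to 154.8 CPM in HR_0hpa and 145.4 to 163.4 CPM in FR_0hpa. Acid-sensing channels belong to the family that RFamides gate in *Hydra*, and 7 of 9 were higher in Head and 1 in Foot (7 from the Foot and Head tables), with a median of -4.48. An ASIC4-A match (R029847c0g1_i01) had 0.437 to 1.17 CPM in Foot against 37.9 to 42.6 CPM in Head. The ASIC1B match R015668c0g1_i01 was the one higher in Foot, with 1.54 to 3.73 CPM in Foot against 0 to 0.322 CPM in Head. Matches to the lysosomal potassium channel TMEM175 were higher in Foot for 8 of 23 and in Head for 10 (12 from the Foot and Head tables), and the median was 0.04. The TMEM175 match R033435c0g1_i04 had 0 to 0.0546 CPM in Foot against 16.6 to 22.2 CPM in Head (1602.3-fold higher in Head, interval 287 to 63331, adjusted p = 1.29e-27). Another, R024902c0g1_i01, had 4.72 to 6.77 CPM in Foot against 0.0755 to 0.653 CPM in Head (log2 fold change 3.96 ± 0.38, adjusted p = 6.22e-10).

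Lectins and mucins other than the rhamnose lectins were mainly Head transcripts. Fucolectins, which bind fucose, gave 1 of 15 higher in Foot and 12 in Head, with a median of -2.85 (12 from the Foot and Head tables). A Fucolectin-3 match (R036789c0g2_i01) had 0.434 to 1.27 CPM in Foot against 54.8 to 61.5 CPM in Head (log2 fold change -6.04 ± 0.22, adjusted p = 1.15e-31). The one called higher in Foot, R037372c0g1_i01, differed between libraries of the same end. It had 11.7, 11.4, 12.1, 0.123 and 0.124 CPM in the Foot libraries against 3.57, 3.26, 2.87, 2.84 and 2.20 CPM in the Head libraries, so Foot 1, 2 and 3 lay above the Head and Foot 5 and 6 below it. Its adjusted p was 0.00678. The log2 fold change was 1.24 with all libraries, and the call was lost when Foot 1 (0.98), Foot 2 (1.00), Foot 3 (0.96) or any of Head 3, 4, 5 and 6 (1.15 to 1.27) was left out. In the libraries numbered 5 and 6 alone it was called in the opposite direction (-3.52, adjusted p = 2.99e-07). Mucin-like proteins, the gel-forming secretions of gland cells, were higher in Head for 7 of 8 and in Foot for 1, with a median of -4.29 (7 from the Foot and Head tables). A Mucin-5B match (R026034c0g5_i01) had 0 CPM in all 5 Foot libraries against 11.3, 10.95, 12.1, 9.87 and 12.0 CPM in the Head libraries (at least 320.3-fold higher in Head, adjusted p = 1.57e-18). Another mucin-like protein (R028598c1g1_i01) had 6.83 to 8.57 CPM in Foot against 165 to 188 CPM in Head. Of 2 SCO-spondin matches, R040185c0g1_i01 was higher in Head, with 18.6 to 24.4 CPM in Foot against 327 to 379 CPM in Head. The other, R030459c0g2_i03, was higher in Foot, with 52.6 to 62.5 CPM in Foot against 9.04 to 13.1 CPM in Head (log2 fold change 2.26 ± 0.12, adjusted p = 1.34e-24).

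Enzymes that finish sugar chains differed by family. Fucosyltransferases, which add fucose, were higher in Foot for 6 of 11 and in Head for 4 (7 from the Foot and Head tables), with a median of 0.94. The match R038071c5g3_i01 had 24.5, 25.6, 25.04, 25.03 and 25.7 CPM in the Foot libraries against 2.81, 2.54, 2.19, 2.63 and 1.61 CPM in the Head libraries (log2 fold change 3.37 ± 0.16, adjusted p = 2.93e-26). In the other direction the match R038894c0g1_i01 had 4.59 to 7.48 CPM in Foot against 29.1 to 31.5 CPM in Head (log2 fold change -2.34 ± 0.13, adjusted p = 1.38e-22). Sulfotransferases, which add sulfate to carbohydrates, were higher in Head for 9 of 13 and in Foot for 3 (10 from the Foot and Head tables), with a median of -2.11. The galactose-3-O-sulfotransferase match R034756c0g1_i02 had 15.4 to 19.6 CPM in Foot against 200.2 to 230.2 CPM in Head (log2 fold change -3.58 ± 0.085, adjusted p = 4.15e-39). The carbohydrate sulfotransferase 11 match R024701c0g1_i02 was higher in Foot, with 9.32 to 12.7 CPM in Foot against 0.0725 to 0.483 CPM in Head (log2 fold change 4.72 ± 0.36, adjusted p = 1.17e-18).

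Secreted proteases included members higher at each end. Astacins are zinc proteases of the nas group, named from worms, and 14 of 19 were higher in Head and 3 in Foot (11 from the Foot and Head tables), with a median of -2.65. The nas-8 match R034130c1g1_i04 had 0.492, 0.229, 0.173, 0.184 and 0.0621 CPM in the Foot libraries against 857, 835, 852, 868 and 901 CPM in the Head libraries (log2 fold change -11.31 ± 0.31, adjusted p = 2.56e-37). The nas-13 match R035386c0g1_i01 had 0.765, 0.917, 0.806, 0.677 and 1.06 CPM in the Foot libraries against 1290, 1303, 1295, 1192 and 1213 CPM in the Head libraries (log2 fold change -10.37 ± 0.24, adjusted p = 4.14e-40). The nas-6 match R038737c0g3_i04 was at 0.172 to 0.31 CPM in Foot against 727 to 797 CPM in Head. In Foot the nas-33 match R038059c0g2_i06 had 57.5, 65.9, 51.7, 64.5 and 58.8 CPM in the Foot libraries against 1.06, 0.653, 0.755, 0.805 and 0.806 CPM in the Head libraries (log2 fold change 6.02 ± 0.22, adjusted p = 2.05e-31). The nas-4 match (R033066c0g1_i01) was at 105 to 108 CPM in Foot against 36.0 to 39.7 CPM in Head. Of 11 matrix metalloproteinases, which degrade collagen and other matrix proteins, 4 were higher in Foot and 4 in Head (4 from the Foot and Head tables), with a median of -0.05. An MMP-14 match (R036836c1g3_i03) had 1258, 1226, 1200, 1224 and 1212 CPM in the Foot libraries against 136, 124, 127, 128 and 129.7 CPM in the Head libraries (log2 fold change 3.25 ± 0.058, adjusted p = 1.09e-44). The MMP-14 match R038640c1g2_i01 had 15.02, 20.4, 22.5, 17.2 and 20.9 CPM in the Foot libraries against 436, 474, 473, 446 and 447 CPM in the Head libraries (log2 fold change -4.56 ± 0.12, adjusted p = 6.81e-38). Transcripts of the same name were highest at opposite ends. A Collagenase 3 match (R006725c0g1_i01) was found at the Head, at 0 to 0.0546 CPM in Foot against 53.2 to 67.3 CPM in Head.

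The matrix itself was made up of shared and end-biased chains. Of 14 collagen alpha chains 4 were higher in Foot and 9 in Head (4 from the Foot and Head tables), with a median of -0.29. Per length, the 4 chains of highest level in Foot differed little between the ends, and of them the alpha-1(V) and alpha-1(II) matches were chosen after their values were seen. The fold changes given beside their TPM values come from the TMM scaled counts and are not ratios of the TPM means. The alpha-1(V) match R015341c0g1_i01 had 1676 ± 307 TPM in Foot against 1760 ± 383 TPM in Head and did not pass the test (adjusted p = 0.0895). Without Head 5 it passed toward the Head (log2 fold change -0.27, adjusted p = 0.00694). A collagen alpha chain (R040779c0g3_i01) had 1661 ± 44.4 TPM in Foot against 1923 ± 95.3 TPM in Head (log2 fold change -0.31 ± 0.089, adjusted p = 0.00148). The alpha-1(II) match R040753c0g1_i01 had 1256 ± 27.6 TPM in Foot against 1407 ± 63.9 TPM in Head (log2 fold change -0.27 ± 0.092, adjusted p = 0.00847). This call was lost when Foot 1, 2 or 6 or Head 3 or 5 was left out (-0.28 to -0.23). It was also lost with library totals alone (-0.205) and against a fold of 1.2. The alpha-2(I) match R040256c0g1_i02 had 1057 ± 10.1 TPM in Foot against 835 ± 17.9 TPM in Head (log2 fold change 0.24 ± 0.080, adjusted p = 0.00651). This call was lost when any library but Foot 6 or Head 3 was left out (0.21 to 0.23). It was also lost with relative log expression factors (0.177), upper-quartile factors (0.151) and DESeq2 (0.177), and against a fold of 1.2. Type IV collagen forms the sheet of basement membranes, and its matches differed. The match R035580c0g1_i01 had 1432, 1214, 1206, 1029 and 1096 CPM in the Foot libraries against 379, 382, 351, 338 and 308 CPM in the Head libraries (log2 fold change 1.76 ± 0.078, adjusted p = 3.98e-27). R037037c0g1_i05, also chosen after its values were seen, had 1211, 1146, 1264, 1148 and 1236 CPM in the Foot libraries against 3838, 4608, 4243, 4346 and 4219 CPM in the Head libraries (log2 fold change -1.82 ± 0.085, adjusted p = 3.03e-26). The match R034465c1g1_i01 had 0.492 to 0.806 CPM in Foot against 130.1 to 144 CPM in Head. The alpha-1(XXI) match R032501c0g1_i01 was a Head transcript at 0.124 to 0.307 CPM in Foot against 275 to 304 CPM in Head (log2 fold change -9.74 ± 0.31, adjusted p = 2.53e-34). All 4 short-chain collagens were higher in Head, with a median of -3.82 (3 from the Foot and Head tables), among them R043234c0g1_i01 at 0.983 to 2.01 CPM in Foot against 58.9 to 62.6 CPM in Head. Of 26 matches to hemicentin, a large matrix protein, 7 were higher in Foot and 18 in Head (13 from the Foot and Head tables), with a median of -2.32. R036273c0g2_i01 had 0.819, 1.95, 0.691, 1.35 and 0.807 CPM in the Foot libraries against 1749, 1875, 1964, 1700 and 1895 CPM in the Head libraries (log2 fold change -10.54 ± 0.37, adjusted p = 8.27e-32). The match R039660c5g1_i05 was higher in Foot with 5219, 5333, 5022, 5029 and 4926 CPM in the Foot libraries against 1837, 2149, 1910, 2010 and 1827 CPM in the Head libraries (log2 fold change 1.39 ± 0.045, adjusted p = 3.11e-33). In R067515c0g1_i01 the Head libraries fell into a higher and a lower set, with 0.0546, 0.0573, 0, 0 and 0 CPM in the Foot libraries against 34.6, 36.9, 34.4, 16.8 and 17.2 CPM in the Head libraries.

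Several of the transcripts with the highest CPM were higher in Head. Soma ferritin (R020261c0g1_i01), which stores iron, had 17624, 17641, 16758, 17555 and 17214 CPM in the Foot libraries against 33472, 36676, 34685, 35946 and 34650 CPM in the Head libraries (log2 fold change -1.01 ± 0.039, adjusted p = 1.13e-29). An adhesion receptor B1 match (R038411c0g1_i01), of a family of receptors with long extracellular parts, had 105, 113, 96.5, 102 and 78.6 CPM in the Foot libraries against 15117, 17915, 15871, 14482 and 13614 CPM in the Head libraries (log2 fold change -7.28 ± 0.32, adjusted p = 3.50e-27). A hemicentin match (R038411c2g1_i01) had 65.3 to 87.1 CPM in Foot against 11437 to 13960 CPM in Head. The first part of its identifier is the same as in the B1 match, so these transcripts may not be independent. Stabilin-1 (R036926c5g3_i08), a match to a scavenger receptor, was less than 2-fold higher in Head, with 9347 to 11516 CPM in Foot against 12875 to 16717 CPM in Head. Adhesion receptors as a list were level, with 19 of 41 higher in Foot and 20 in Head (22 from the Foot and Head tables) and a median of -0.16. The E2 match R018904c0g1_i01 had 154, 114, 111, 119 and 124 CPM in the Foot libraries against 0, 0, 0.226, 0 and 0.161 CPM in the Head libraries and was the largest difference of the list toward the Foot (log2 fold change 9.41 ± 0.52, adjusted p = 1.47e-18). An aquaporin-10 match (R036512c0g1_i01), a water and glycerol channel, had 0 to 0.115 CPM in Foot against 155 to 171 CPM in Head (4607-fold higher in Head, interval 1576 to 22344, adjusted p = 1.35e-32). A venom allergen 5 match (R030356c0g1_i01), of a secreted protein family found in many venoms, had 0.273 to 1.43 CPM in Foot against 614 to 678 CPM in Head (log2 fold change -9.49 ± 0.39, adjusted p = 4.12e-29).

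Of 13 transcripts of tubulins and contractile proteins 4 were higher in Foot and 9 in Head (5 from the Foot and Head tables), with a median of -0.76. Tubulins build microtubules, of the cell body and of the sensory cilia of stinging cells. An alpha tubulin (R018744c0g1_i01) had 2219, 2233, 2299, 2153 and 2243 CPM in the Foot libraries against 674, 714, 675, 653 and 668 CPM in the Head libraries (log2 fold change 1.72 ± 0.042, adjusted p = 1.00e-38). The alpha-1D match R022518c0g1_i01 had 65.6, 68.7, 70.0, 61.7 and 67.5 CPM in the Foot libraries against 958, 1035, 905, 955 and 850.1 CPM in the Head libraries (log2 fold change -3.82 ± 0.068, adjusted p = 9.37e-45). On the per-length scale the first was at 1644 ± 32.4 TPM in Foot against 465 ± 13.01 TPM in Head and the second at 139 ± 6.10 TPM in Foot against 1829 ± 112 TPM in Head. The more abundant of these 2 alpha tubulins differed between the ends. A beta tubulin (R031059c0g1_i02) was higher in Head, with 594 to 709 CPM in Foot against 4438 to 5345 CPM in Head. Of the muscle proteins, a Myophilin match (R027321c0g1_i01) had 0, 0.86, 0, 0.8 and 0 CPM in the Foot libraries against 162, 159, 140.4, 172 and 154 CPM in the Head libraries (log2 fold change -8.49 ± 0.38, adjusted p = 9.22e-28). A Tropomyosin-1 match (R036426c0g1_i01) was higher in Foot, with 1220 to 1371 CPM in Foot against 850.3 to 1028 CPM in Head.

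Di-Ras and drn-1 proteins are small GTPases of the Ras superfamily that are known from neurons in vertebrates and worms. Of 8 matches, 6 were higher in Foot and 2 in Head (3 from the Foot and Head tables), with a median of 0.96. The reading frames of 3 of them were given with the study, and a stretch of 144 bases of each, 5′ to 3′ in the coding direction, is shown because these relatives took opposite directions between the ends. Capitals mark the codons of the P-loop, the GxxxxGK(S/T) motif that holds the phosphates of GTP, which a search of the translated frames found once per frame at this place.
R000437c0g1_i01: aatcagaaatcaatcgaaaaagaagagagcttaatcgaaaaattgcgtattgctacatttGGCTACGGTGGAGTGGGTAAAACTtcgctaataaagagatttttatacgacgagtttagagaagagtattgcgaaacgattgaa
R001602c0g2_i01: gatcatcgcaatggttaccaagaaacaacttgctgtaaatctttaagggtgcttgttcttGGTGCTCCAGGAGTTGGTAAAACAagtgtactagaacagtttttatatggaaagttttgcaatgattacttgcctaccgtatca
R003865c0g2_i01: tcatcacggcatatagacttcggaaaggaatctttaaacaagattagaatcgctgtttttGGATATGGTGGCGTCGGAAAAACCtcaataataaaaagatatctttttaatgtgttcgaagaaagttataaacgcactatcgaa
The Di-Ras2 match R000437c0g1_i01 had 30.5, 27.9, 19.6, 23.3 and 21.5 CPM in the Foot libraries against 10.2, 12.2, 11.7, 11.7 and 12.0 CPM in the Head libraries (log2 fold change 1.08 ± 0.15, adjusted p = 7.80e-09). The drn-1 match R001602c0g2_i01 had 26.9, 25.9, 22.7, 23.7 and 22.2 CPM in the Foot libraries against 16.6, 13.9, 14.4, 13.2 and 14.6 CPM in the Head libraries (log2 fold change 0.74 ± 0.15, adjusted p = 2.30e-05). The Di-Ras2 match R003865c0g2_i01 had 0.109, 0.0573, 0, 0 and 0.0621 CPM in the Foot libraries against 2.73, 2.76, 2.57, 1.82 and 1.99 CPM in the Head libraries (log2 fold change -3.999 ± 0.51, adjusted p = 4.69e-14). The reading frames encoded 223, 200 and 249 residues. The first and the third, both named Di-Ras2, were identical at 52.3% of aligned residues and had opposite directions, whereas the first and the drn-1 match were identical at 36.4% and had the same direction. A further Di-Ras2 match (R023878c0g1_i01) had the largest difference of the 8, with 50.7, 46.2, 47.4, 48.0 and 56.3 CPM in the Foot libraries against 0, 0.145, 0.0755, 0.0536 and 0 CPM in the Head libraries (log2 fold change 8.30 ± 0.40, adjusted p = 2.54e-19). Di-Ras1 (R037230c0g1_i01) was higher in Head, with 16.4 to 18.8 CPM in Foot against 46.5 to 53.5 CPM in Head.

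Both ends had less of the transcripts of dividing cells than the mid-body, and the Head had less than the Foot. Of 10 transcripts of replication, mitosis and the stem cell factors Piwi (none from the Foot and Head tables), 9 were higher in Foot than in Head, with a median of 0.98. They summed to 808.6 to 864.4 CPM in Foot and 528.5 to 582.8 CPM in Head, against 1665 to 1989 CPM in HR_0hpa and 1704 to 1901 CPM in FR_0hpa. All 10 were called lower at each end than in each mid-body group (32.4% of transcripts were lower in Foot than in FR_0hpa and 38.6% lower in Head than in FR_0hpa). The mcm4-B match R005193c0g1_i01, a subunit of the replicative helicase, had 38.7, 40.7, 45.8, 40.6 and 40.5 CPM in the Foot libraries against 13.1, 17.0, 13.5, 15.2 and 14.9 CPM in the Head libraries (log2 fold change 1.47 ± 0.076, adjusted p = 2.64e-24). In the mid-body it was at 178 to 223 CPM in HR_0hpa and 154 to 207 CPM in FR_0hpa. The Piwi-like 1 match R039787c1g1_i01 had 439.7 to 479 CPM in Foot against 320.3 to 355 CPM in Head and was at 757 to 899.5 CPM in HR_0hpa and 731 to 864 CPM in FR_0hpa. The difference between the ends was smaller in the Piwi transcripts than in the helicase transcripts on the log2 scale (0.45 and 0.60 against 1.47, 0.94 and 1.24 for mcm4-B, mcm5-A (R017370c0g1_i01) and mcm2 (R020329c0g1_i01), with R034778c0g2_i03 the Piwi-like 2 match), and this order was not tested. A histone H2B match (R001784c0g1_i01) had 20.9, 8.71, 10.53, 7.996 and 8.13 CPM in the Foot libraries against 0.683, 1.38, 0.906, 0.59 and 0.806 CPM in the Head libraries, with Foot 1 above the other Foot libraries. A cyclin-B match (R011117c0g1_i01) did not pass the test (adjusted p = 0.479).

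Gland cell enzymes gave 1 of 7 higher in Foot and 4 in Head, with a median of -0.65 (1 from the Foot and Head tables). A chymotrypsin-C match (R074105c0g1_i01) had 0.546, 0.573, 0.863, 0.369 and 0.683 CPM in the Foot libraries against 369, 356, 352, 309 and 308 CPM in the Head libraries (log2 fold change -8.89 ± 0.15, adjusted p = 2.77e-46). A chymotrypsinogen B match (R028922c0g1_i01) had 0.0615 to 0.688 CPM in Foot against 62.1 to 76.3 CPM in Head. Another chymotrypsin-C match (R016874c0g3_i01) was higher in Foot, with 4.64 to 8.29 CPM in Foot against 1.23 to 2.79 CPM in Head, and was higher still in the mid-body at 19.9 to 26.5 CPM in HR_0hpa and 20.2 to 26.9 CPM in FR_0hpa. Chitinase (R038429c0g1_i01) did not pass the test at 429 ± 28.4 CPM in Foot against 391 ± 22.8 CPM in Head (adjusted p = 0.038). The 7 gland transcripts summed to 427 to 504 CPM in Foot and 771 to 883 CPM in Head, against 328 to 391 CPM in HR_0hpa and 367 to 464 CPM in FR_0hpa. The part of differing shares of gland, nerve and dividing cells in the results above was not tested.

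Setting the ends beside the mid-body showed several forms of profile among transcripts that differed between Foot and Head. Some were low at both ends. The AP-1 gene jun (R013156c0g1_i01) had 9.12 to 12.2 CPM in Foot against 3.63 to 5.32 CPM in Head and was at 67.0 to 76.7 CPM in HR_0hpa and 70.2 to 77.1 CPM in FR_0hpa. The forkhead gene foxl1 (R005786c0g1_i02) had 4.43 to 6.91 CPM in Foot against 2.47 to 4.89 CPM in Head and was at 32.0 to 36.4 CPM in HR_0hpa and 33.2 to 42.4 CPM in FR_0hpa. For both, all 4 contrasts of an end with a mid-body group passed the test. The mid-body tissue came from bisected animals, and the paper counts jun among the regulators of the generic injury response. Whether the cut changed the mid-body level of jun was not tested. Others were high at both ends, such as the forkhead gene fd4, at 0.116 to 0.689 CPM in HR_0hpa and 0 to 0.0643 CPM in FR_0hpa in the mid-body, and the VEGF-C match R035588c0g1_i01, at 130.1 to 165 CPM in HR_0hpa and 92.1 to 118 CPM in FR_0hpa. A last set stepped along the body. The PITX match R017069c0g1_i02, a homeobox factor of left-right and head patterning in other animals, had 1.55 to 2.90 CPM in Foot against 25.8 to 31.3 CPM in Head. Its mid-body levels of 2.68 to 4.29 CPM in HR_0hpa and 9.80 to 13.1 CPM in FR_0hpa had means between the ends in the order of the axis, with Foot and HR_0hpa libraries overlapping (adjusted p = 0.0063 for Foot over HR_0hpa). That step was lost without Foot 2, 3 or 6 (log2 fold changes of -0.50 to -0.41), without the libraries numbered 5 and 6, in those libraries alone, and against a fold of 1.2. The DMBX1 match R030413c0g2_i02, also of the homeobox class, had 42.0 to 55.0 CPM in Foot against 2.89 to 4.15 CPM in Head and mid-body levels of 25.9 to 41.9 CPM in HR_0hpa and 8.65 to 12.8 CPM in FR_0hpa, again in axial order but in the other direction (adjusted p = 2.86e-04 for Foot over HR_0hpa). That step was lost with library totals alone (log2 fold change 0.21), in the libraries numbered 5 and 6 alone, and against a fold of 1.2. The MSX2 match R007809c0g1_i02 had 11.3 to 14.2 CPM in Foot against 0.0725 to 0.322 CPM in Head and was at 16.3 to 22.2 CPM in HR_0hpa and 8.20 to 11.5 CPM in FR_0hpa. Its highest mean was in HR_0hpa, above Foot (log2 fold change -0.55, adjusted p = 3.66e-06 for Foot over HR_0hpa). EphA4 was near its Foot level in HR_0hpa (log2 fold change -0.065, adjusted p = 0.154 for Foot over HR_0hpa, not called, though called at -0.33 with library totals alone), and the Head was above both mid-body groups (log2 fold changes of 3.47 over HR_0hpa and 2.98 over FR_0hpa).

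**Figure D3:**
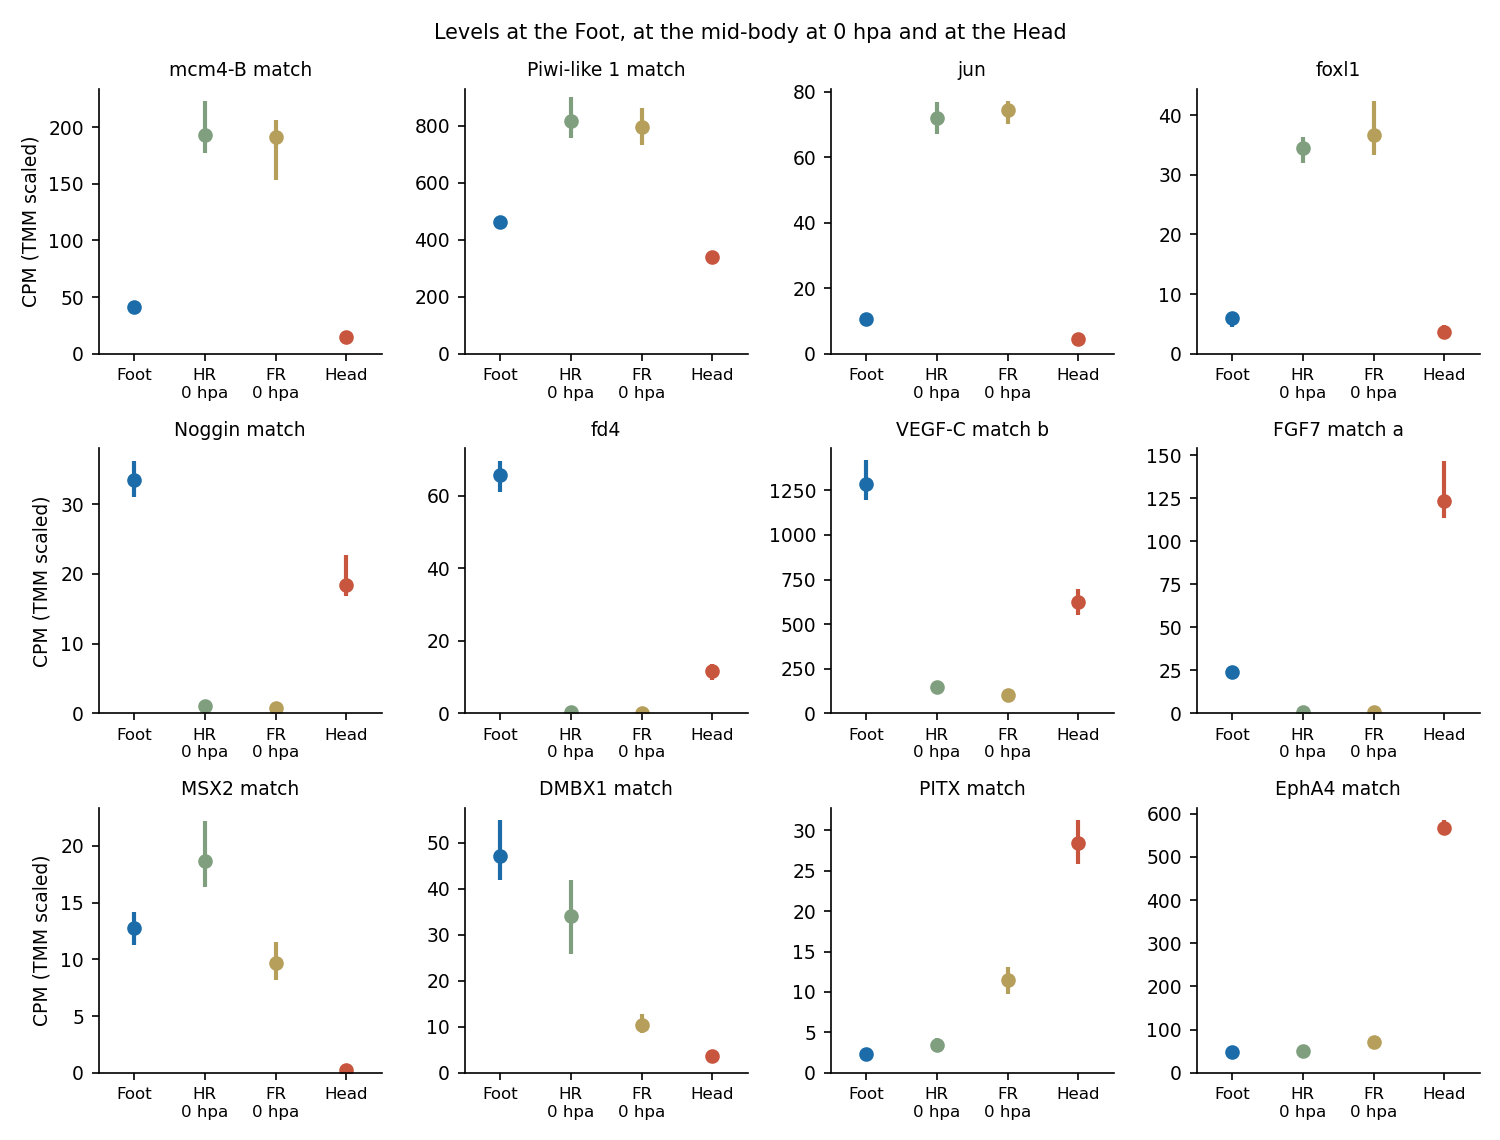
TMM scaled CPM (vertical axis, linear, from 0) in Foot (5 libraries), HR_0hpa (7), FR_0hpa (7) and Head (5) for 12 transcripts, in the order of the body axis, with the mean as a point and the lowest to highest library as a line. The top row is lower at both ends than in the mid-body, the middle row higher at both ends, and the bottom row differs along the axis.

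Transcripts without any count at one end were found in both directions. 74 of those tested had no count in all 5 Head libraries, 50 of them with a count in every Foot library, and 69 had no count in all 5 Foot libraries, 63 of them with a count in every Head library. Of the first set 23 were named and of the second 13. Beside the peroxidase, lectins, kiaa1958, VBP/HLF and Gfi-1b in Foot, and wnt3, Wnt-1 and Mucin-5B in Head, the Head set included a Neuroglobin match (R011760c0g1_i01), an oxygen-binding protein of nerve cells, at 0 CPM in Foot against 6.24 to 8.13 CPM in Head (at least 207-fold higher in Head, adjusted p = 3.17e-10). It also included a Tenascin-X match (R038547c1g2_i01), a matrix glycoprotein, at 0 CPM in Foot against 3.59 to 5.70 CPM in Head (at least 132-fold higher in Head, adjusted p = 2.31e-18). A count of 0 in these libraries does not show that a transcript was absent from the tissue.

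The plot of fold changes by list shows most members on the Head side for the Wnt ligands, neuropeptide precursors, acid-sensing and potassium channels, glutamate receptors, fucolectins and mucin-like proteins, and on the Foot side for the rhamnose lectins, peroxidases and FGF receptors. Many were named from tables selected on these libraries. Opposite directions were also counted among transcripts that share the first part of an identifier, which can hold different protein matches. Of all called transcripts 56.3% were higher in Foot, so unrelated called transcripts often differ in direction too. The count below was not compared with unrelated transcripts and is a description only. Of 931 groups of transcripts that share an identifier cluster in the assembly and had 2 or more called members, 251 (27.0%) held members called in opposite directions, and in 25 of them a member lay beyond 4-fold in each direction. One example, chosen after its values were seen, was glutamine synthetase, the enzyme that makes glutamine from glutamate, with R032520c0g2_i04 at 12.1 to 13.8 CPM in Foot against 365 to 413 CPM in Head (log2 fold change -4.90 ± 0.28, adjusted p = 3.61e-22) and R032520c0g2_i06 at 261 to 281 CPM in Foot against 1.82 to 3.04 CPM in Head (log2 fold change 6.66 ± 0.21, adjusted p = 3.16e-34).

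**Figure D4:**
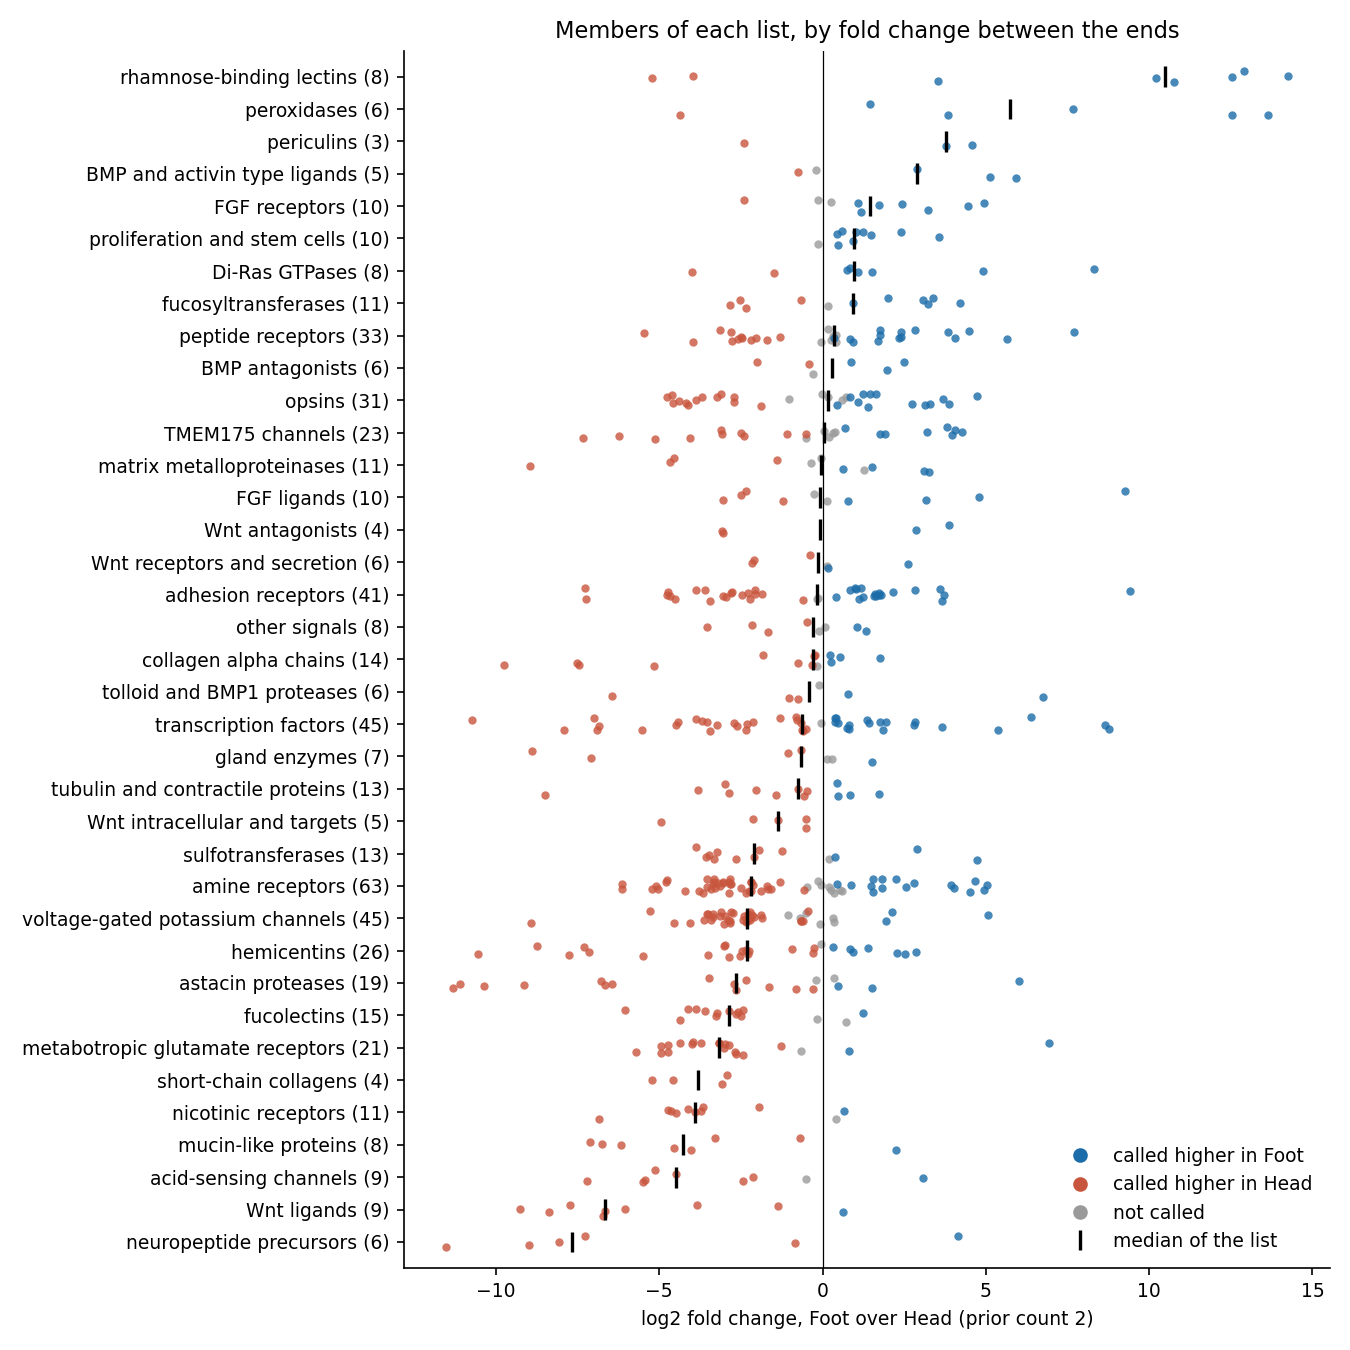
Log2 fold change of Foot over Head (horizontal axis) for each tested member of 37 lists (one row per list, number of members in brackets), with members called higher in Foot, called higher in Head and not called in separate colours and the list's median as a bar. Rows run from the most positive median at the top, the rhamnose-binding lectins at 10.48, to the most negative at the bottom, the neuropeptide precursors at -7.68.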

How the data were processed

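Poly(A) RNA-seq was measured in 61 libraries, of which 10 (5 Foot and 5 Head) carry the comparison and 14 taken at 0 hpa serve as mid-body groups. Per the labels, the authors trimmed reads with Trimmomatic 0.39, aligned them with Bowtie2 and quantified them with RSEM on a reduced transcriptome of 23396 transcripts. Their deposited expected counts were used before the batch correction that the authors applied later, and 5.33% of the values were not whole and were rounded. In the deposited FPKM table, 14 columns at 0 hpa gave effective lengths for 16837 transcripts (at least 10 counts and 0.5 FPKM), from which TPM was computed. The other 25 columns of that table were not used. Of the count columns, 31 could be tied to a group but not to one labelled replicate.

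The main test was edgeR 4.0.16 (R 4.3.3), quasi-likelihood, over all 61 libraries with group and batch terms, TMM factors and edgeR's expression filter, called at a Benjamini-Hochberg adjusted p under 0.01. Foot and Head took a batch value of 0.4, their share in the second batch by the labels. As every Foot and Head library had this value, the batch term cancelled in Foot over Head and adjusted nothing within an end. The alternative with no batch term could therefore change little in that contrast. Printed log2 fold changes used a prior count of 2. On simulated counts for Foot versus Head over 17455 transcripts, the test recovered 20% of 1.5-fold, 94% of 2-fold and 100% of 4-fold and 8-fold changes. Those counts had 50 changed transcripts at each fold and the same spread for every transcript. The shares do not carry over to these data, in which most transcripts tested were called. The depth was 15335535 to 22105585 counts per library. The median SE was 0.121 on the log2 scale. Each SE came from the test and belongs to the test's own fold change, not to the printed one with its prior count of 2. Intervals and bounds cover counting error only.

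Named transcripts were the genes the study lists by name, members of the lists (for lists over 10 members outside signalling and transcription factors, up to 4 called members with the largest fold change in each direction), the 10 largest changes in each direction above a mean of 10 CPM, the 5 of highest CPM, the 5 of highest CPM with no count at the other end, and opposite members of one list. Members and lists were chosen with earlier results of these data known. Sequences and names came from tables given with the study. Alternatives were other scalings, no filter, no batch term, the 10 libraries alone, glmTreat, DESeq2 1.42.0, other thresholds and prior counts, and libraries left out.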

Additional observations from a re-analysis of the deposited data

Results flagged for a closer look

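In 405 groups of 5 libraries, the lowest or highest library was compared with the other 4 by Dixon's ratio of gap to range. Chance alone flags about 1 group in 20, and 31 were found, 15 of them with all values under 1 CPM, where few counts stand behind each value.

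Among the transcripts above 1 CPM, Foot 1 stood out in 5. It had 2287 CPM of the peroxidase match R038155c0g1_i01 (1630 to 1688 CPM in the other Foot libraries), 20.9 CPM of histone H2B (7.996 to 10.53 CPM), 154 CPM of the adhesion receptor E2 match (111 to 124 CPM), 3031 CPM of the lectin R039168c2g2_i02 (3355 to 3419 CPM) and 1.91 CPM of the Wnt-5a match (3.08 to 3.40 CPM). In other Foot libraries, Foot 2 had 193 CPM of kiaa1958, Foot 3 had 45.8 CPM of mcm4-B, Foot 5 had 264 CPM of the exo-arabinofuranosidase match and Foot 6 had 4.35 CPM of the Indian hedgehog match.

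In the Head, Head 2 had 71.2 CPM of axin1 (58.4 to 61.4 CPM in the other Head libraries), 36.8 CPM of Gremlin-1 (28.2 to 30.6 CPM), 10.2 CPM of the Di-Ras2 match R000437c0g1_i01 (11.7 to 12.2 CPM) and 2.05 CPM of dlx2. Head 3 had 9194 CPM of the alpha-1(II) collagen match, Head 4 had 53.5 CPM of Di-Ras1 and Head 6 had 22.7 CPM of Noggin.

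The remaining values lay at the end where the transcript was nearly without counts. In Foot these were 0.0546 CPM of Collagenase 3, 0.109 CPM of wnt7, 0.437 CPM of the histamine H2 receptor match and 0.0546 CPM of the TMEM175 match R033435c0g1_i04 in Foot 1, 0.0573 CPM of wnt9/10c in Foot 2, 0.0615 CPM of the RFamide precursor R025918c0g1_i01 and 0.0615 CPM of FoxE4 in Foot 5, and 0.497 CPM of OTX1B in Foot 6. In Head they were 0.456 CPM of the 1-phosphatidylinositol phosphodiesterase match and 0.152 CPM of the exo-arabinofuranosidase match in Head 2, 0.653 CPM of the TMEM175 match R024902c0g1_i01 in Head 3, 0.302 CPM of senseless in Head 4, 0.0536 CPM of the FGF7 match R027901c0g2_i01 in Head 5, and 0.645 CPM of the mGluR3 match and 0.215 CPM of the lectin R041141c2g1_i01 in Head 6.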

How the results depend on the processing

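The counts over all transcripts stayed within 1.5 times their main values in every alternative run. With 1 library left out at a time, 6343 to 6510 transcripts were higher in Foot and 5029 to 5241 in Head, with a median log2 fold change of 0.096 to 0.13. Other scalings gave 6071 to 7105 in Foot and 4807 to 5719 in Head. Fitting the 10 Foot and Head libraries alone gave 5469 in Foot and 5470 in Head and shifted the median over all transcripts by more than 0.1, to 0.017, so small differences toward the Foot depended on this choice. A fold threshold of 1.2 (glmTreat) left 5480 in Foot and 4044 in Head, and DESeq2 gave 6283 and 5551.

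Column numbers 2, 3, 5 and 6 occur at both ends. The deviations of same-numbered libraries correlated at 0.038, 0.082, 0.13 and 0.15, and no label ties a number to a batch. Since 2 of these were under 0.1, the numbers were not taken as pairs. Across the ends, pairs within numbers 5 and 6 correlated at 0.083 to 0.149, and pairs of 5 or 6 with a lower number at -0.144 to -0.047. On the component that separated the 0 hpa batches, Foot 5 and 6 lay at -13.12 and -14.28 against 3.82 to 11.16 for Foot 1 to 3, Head 6 lay at -23.87 and Head 5 at -1.57, against -3.62 to 19.17 for Head 2 to 4. In an alternative chosen after seeing the data, a replicate block over these numbers gave 5257 in Foot and 5247 in Head (median 0.021), against 5225 and 5207 (median 0.018) with no replicate block in the same 8 libraries. Other fits chosen after seeing the data gave 5869 in Foot and 4538 in Head without the libraries numbered 5 and 6, 5554 and 4102 with only those libraries at each end, and 6674 and 5202 with those libraries set to the second batch. With direction kept, the first of these ended the call of 6 named transcripts and the second of 8. The second also reversed the fucolectin match R037372c0g1_i01. The last ended only the call of that fucolectin match (log2 fold change -0.275, adjusted p = 0.342). A block on the labelled replicate numbers was not run because columns were not tied to those labels.

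Of 211 named transcripts, 189 kept their direction and their side of the threshold in all 26 alternatives (21 of them planned), 14 lost the call under 1 or more, 5 gained it and 4 changed sign, and a transcript can be in more than one of these sets. DESeq2 ended the call of the Neuroglobin match (R011760c0g1_i01, adjusted p = 0.228) and of a Periculin match (R035538c0g2_i04, adjusted p = 0.589), and it gave no adjusted p for R027812c0g2_i01 and R039168c2g2_i02. Those that changed sign were fos (R029832c0g1_i01), with -0.185 without Foot 1 (-0.185 to 0.362 with 1 library left out at a time), -0.405 with the replicate block and -0.315 with no replicate block in the same libraries and -0.288 in libraries 5 and 6 alone, a hedgehog match (R040442c2g1_i11), with -0.010 in the 10 libraries alone, -0.085 with the replicate block, -0.086 without it and -0.040 in libraries 5 and 6 alone, a cyclin-B match (R011117c0g1_i01), with 0.188 in libraries 5 and 6 alone, and a fucolectin match (R037372c0g1_i01), with -0.72 with the replicate block, -3.518 in libraries 5 and 6 alone and -0.275 with those set to the second batch. The cause was not tested. Small differences that were not called may be missed. The simulated counts used the same spread for every transcript and few changed transcripts, unlike these data. Their 20% recovery of 1.5-fold changes therefore does not measure how many are missed here.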

Other observations

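The transcripts more than 16-fold higher at one end were a small part of the mid-body libraries. Those higher in Foot made up 0.584 to 0.683% of the scaled counts of an HR_0hpa library and 0.400 to 0.507% of an FR_0hpa library, and those higher in Head made up 0.138 to 0.147% in HR_0hpa and 0.275 to 0.32% in FR_0hpa. HR_0hpa is the nearer of these groups to the Foot and FR_0hpa the nearer to the Head. The members were chosen by the fold between the ends, and no test was made.

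A group of abundant Head transcripts, picked after their values were seen, had nearly the same fold change. The adhesion receptor B1 match R038411c0g1_i01 was at a log2 fold change of -7.28, the hemicentin match R038411c2g1_i01 at -7.29, a thrombospondin-2 match (R038943c0g1_i01) at -7.25 with 49.7 to 74.1 CPM in Foot against 8768 to 10568 CPM in Head, and a second B1 match (R039660c1g1_i01) at -7.25 with 22.4 to 33.7 CPM in Foot against 3809 to 5053 CPM in Head. The first B1 match and the hemicentin match share the first part of their identifiers (R038411). The second B1 match shares it (R039660) with the hemicentin match R039660c5g1_i05, which was higher in Foot. Whether reads were shared between any of these transcripts was not tested.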
